A study of Homo sapiens with 40 samples.

Results

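The genes described here are 36 interferon-stimulated and antigen presentation genes, a set chosen by name and function. Each gene was represented by the brightest of the probe sets that the platform annotation pairs with that gene alone. Such a probe set existed for 35 of the 36 genes; STAT2 had none and was not analysed here. Of the 35, 29 passed the filter on dim signals, among 11853 genes that passed it in the whole series and 19775 genes with a probe set of their own. The study measured gene expression on 40 microarrays of LNCaP, an established human prostate cancer cell line that depends on androgen. It set 7 lines labelled resistant to MDV3100 against 3 control lines labelled sensitive to it. MDV3100, also called enzalutamide, blocks the androgen receptor and is used against prostate cancer. The resistant lines carry the clone numbers 1, 9, 10, 14, 15, 19 and 24. The control lines carry the titles D+E-, D+R- and M+R-, which the labels do not explain, and are called control 1, control 2 and control 3. All cells grew for 3 days in RPMI-1640 with fetal calf serum and then received either MDV3100 at 10 µM or its solvent, DMSO at 0.1%, for 24 h. Each line and treatment has an array numbered replicate 1 and one numbered replicate 2, which gives 14 arrays of clones in MDV3100, 14 of clones in DMSO, 6 of control lines in MDV3100 and 6 of control lines in DMSO. A line with its replicate number is called a culture here, and the 20 cultures each have an MDV3100 and a DMSO array. How the clones were derived is not given in the sources used here. Whether the replicates were separate cultures is not stated either. P-values for clones against control lines and for drug responses rest on the spread between lines, which includes technical variation. Those for comparisons between replicate sets rest on the spread between cultures, and the difference between the sets may be technical.

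Interferons are signalling proteins that cells release on sensing viral nucleic acid. They bind receptors whose associated JAK kinases switch on transcription factors, and a complex that contains IRF9 then binds interferon-stimulated response elements in the promoters of antiviral genes. Interferon gamma acts at gamma-activated sites and raises the machinery of antigen presentation. There the immunoproteasome subunits PSMB8 and PSMB9 cut proteins into peptides, TAP1 helps to carry the peptides into the endoplasmic reticulum, and beta-2-microglobulin (B2M) forms the light chain of MHC class I molecules. LNCaP is known to respond poorly to interferon and to make little JAK1.

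The promoters of 5 members are printed to show the response element that many of these genes share. B2M, HERC5, ISG20 and IFITM1 each passed the test in a comparison below, and TAP1 is shown because its start lies beside that of PSMB9. They were taken from RefSeq on build GRCh38.p14 as the 250 bases before an annotated start of the gene, 5′ to 3′ on the strand of the gene. TAP1 has 2 annotated starts, at 32853704 and 32852761. Only 1 of its 2 windows held the element, and that one, at 32853704, was printed for this reason. Capitals mark matches to the interferon-stimulated response element, searched as GAAANNGAAA on both strands with overlaps allowed. TAP1 lies at chr6:32853705-32853954 on the minus strand, B2M at chr15:44711267-44711516, HERC5 at chr4:88456869-88457118, ISG20 at chr15:88638766-88639015 and IFITM1 at chr11:313790-314039, the last 4 on the plus strand.
TAP1: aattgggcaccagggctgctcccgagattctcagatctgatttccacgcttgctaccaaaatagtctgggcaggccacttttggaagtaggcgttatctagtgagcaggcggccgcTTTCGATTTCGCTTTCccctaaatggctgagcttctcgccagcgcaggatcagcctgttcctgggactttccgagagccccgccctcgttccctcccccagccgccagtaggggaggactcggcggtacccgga
B2M: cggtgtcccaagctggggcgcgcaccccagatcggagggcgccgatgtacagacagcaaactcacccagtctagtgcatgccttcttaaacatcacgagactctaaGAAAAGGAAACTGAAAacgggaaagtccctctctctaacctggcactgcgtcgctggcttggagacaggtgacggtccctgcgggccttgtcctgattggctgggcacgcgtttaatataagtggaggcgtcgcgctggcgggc
HERC5: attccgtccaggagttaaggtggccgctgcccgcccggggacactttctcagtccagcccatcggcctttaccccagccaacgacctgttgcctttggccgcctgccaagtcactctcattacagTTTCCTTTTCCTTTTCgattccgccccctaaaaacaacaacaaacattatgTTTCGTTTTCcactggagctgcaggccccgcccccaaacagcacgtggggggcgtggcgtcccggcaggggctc
ISG20: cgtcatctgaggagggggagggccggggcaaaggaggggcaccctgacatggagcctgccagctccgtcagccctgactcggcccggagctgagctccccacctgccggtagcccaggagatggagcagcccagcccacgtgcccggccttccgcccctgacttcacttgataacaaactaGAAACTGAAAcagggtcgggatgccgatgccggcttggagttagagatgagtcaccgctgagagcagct
IFITM1: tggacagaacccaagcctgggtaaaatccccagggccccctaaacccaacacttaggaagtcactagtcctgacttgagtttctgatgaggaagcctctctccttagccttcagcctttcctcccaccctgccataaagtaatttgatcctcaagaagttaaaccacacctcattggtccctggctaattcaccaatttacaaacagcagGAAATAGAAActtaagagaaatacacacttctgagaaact
HERC5 held 3 matches, TAP1 and B2M held 2 each, and ISG20 and IFITM1 held 1 each. The first match begins 134 bases before the start in TAP1, 144 in B2M, 125 in HERC5, 69 in ISG20 and 40 in IFITM1. Over windows of 300 bases, from 250 before to 50 after a start, 21 of the 29 members with a window, which are not the same 29 that passed the filter, held the motif (72.4%), against 1195 of 27305 genes in the table (4.38%). The gamma-activated site, searched as TTCNNNGAA, was in 11 of 29 members (37.9%) and in 2560 of 27305 genes (9.38%). The windows of STAT2, IRF1, IRF9, OAS1, HERC6, XAF1, IFI35 and PSMB9 held no response element in these letters. PSMB9 and TAP1, at the TAP1 start used here, begin 488 bases apart on opposite strands. The TAP1 match lies 354 bases before the start of PSMB9, outside the PSMB9 window. A match is a description of the letters, and no binding was measured in this study.

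Some cultures went against their labels. Profiles were compared as the mean log2 level of the MDV3100 and DMSO arrays of a culture with the mean of each gene over the cultures subtracted; r is across genes, which are not independent replicates. The replicate 2 culture labelled control 2 was most like the replicate 1 culture labelled clone 1, with r = 0.853 over the 29 members and 0.748 over all 11853 genes, against 0.128 and -0.328 with replicate 1 of its own label. Its members differed from those of replicate 1 of clone 1 by a median of 0.14 on the log2 scale, and 28 of 29 lay within 0.5. The replicate 2 culture labelled clone 1 was likewise most like the replicate 1 culture labelled clone 19, with r = 0.859 over the members and 0.744 over all genes, against -0.122 and 0.093 with its own label. The replicate 2 cultures of clones 9, 10, 14, 15, 19 and 24 correlated with replicate 1 of their own labels at r = -0.724 to -0.428 over all genes, and the best match any of them found in replicate 1 reached r = 0.066. These 6 replicate 2 cultures are called replicate 2 clones 9 to 24 below. The mean of each gene was taken over both sets, so a shift between the sets can itself push their r below 0. Their r values alone therefore do not settle whether their labels are right. The other replicate 2 control cultures also found their best match over all genes under another label. That labelled control 3 was most like replicate 1 of clone 15 (r = 0.633, against -0.089 with its own label), and replicate 1 of clones 9, 10, 14, 15 and 24 each had it as their best match, at r = 0.407 to 0.633. That labelled control 1 was most like replicate 1 of control 3 (0.510 against 0.096), which is also a control line. Results are therefore given for the lines as labelled, within each replicate set, without the replicate 2 cultures labelled clone 1 and control 2, and without these and the one labelled control 3. In the last case control 2 and control 3 rest on replicate 1 alone, and replicate 2 holds 1 control culture. Clones 9 to 24 still average both sets there. A difference of clones from control lines can then not be fully told apart from one between the sets.

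**Figure D1:**
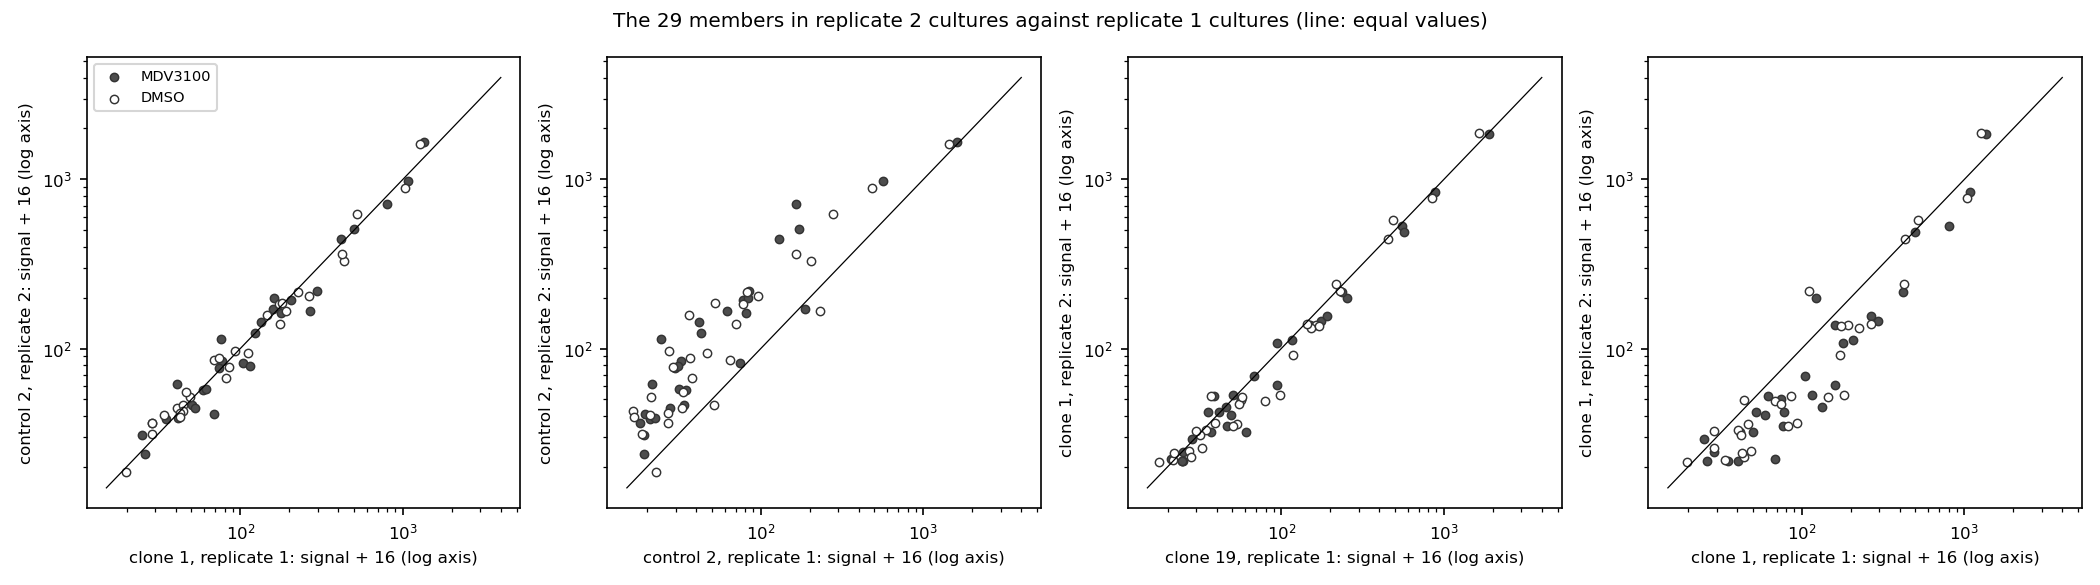
Signal of members in the cultures whose profiles matched across labels, on log axes, each point 1 member and the line marking equal signal. The points of the replicate 2 culture labelled control 2 lie along the line against replicate 1 of clone 1 and scatter away from it against replicate 1 of their own label, and the culture labelled clone 1 does the same with clone 19.

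Across the series, LNCaP genes such as KLK3, KLK2, FOLH1, HOXB13, TMPRSS2, KRT8 and KRT18 gave a summed signal of 5972.5 to 16394.4 over 8 genes. The 10 leukocyte markers summed to 14.5 to 60.5 and the 8 interferon genes with a probe set to 6.7 to 33.2 per array, near the filter signal of 12.1 for a probe set. Of 5 endothelial and 8 fibroblast markers, CDH5, TEK, COL1A2, DCN, LUM and POSTN stayed at or below 9.0. COL3A1 reached 54.1, PECAM1 29.5, PDGFRB 28.6, KDR 19.5 and THY1 17.3, and of these COL3A1 and PDGFRB passed the filter. VWF and COL1A1 passed it too and differed in replicate 1. VWF had DMSO signals of 11.1 to 26.9 in replicate 1 clones and 49.8 to 126.2 in control lines, by -1.59 in limma's fit (adjusted p = 0.00425), and COL1A1 had MDV3100 signals of 101.2 to 157.0 in clones and 188.8 to 347.9 in control lines (adjusted p = 0.0125). COL1A1 was also lower in the clones over both sets in MDV3100, by -0.61 (0.0391). The endothelial markers summed to 16.2 to 37.1 in replicate 1 clones and 63.5 to 135.3 in control lines in DMSO, and to 18.7 to 32.8 and 20.1 to 65.5 in replicate 2. Their part in the differences between clones and control lines was not tested. MDV3100 lowered 1 of 6 androgen-induced genes in the clones and 4 of 6 in the control lines, where limma's log2 difference was -2.27 for TRPM8 and -1.50 for KLK2. Array medians lay between 10.7 and 18.4. The ratio of the 3′ to the 5′ actin probe sets, a sign of RNA quality, was 2.59 to 3.71 in replicate 2 clones against 3.39 to 5.34 in replicate 1 clones, and 3.30 to 3.95 in replicate 2 against 3.18 to 6.59 in replicate 1 control lines. Its part in the differences between replicate sets was not tested.

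Values are linear MAS5 signals, the summary that the array software makes of the probes of a set, in arbitrary units scaled to a common trimmed mean of 150. Differences are on the log2(signal + 16) scale, which understates changes of dim genes. Signals of different genes cannot be ranked against each other. B2M gave 1250.7 to 3249.5 over the 40 arrays. The 6 members below the filter, OAS2, MX2, BST2, TRIM22, XAF1 and IFI44L, gave signals between 0.1 and 25.4 and were not tested. Among the members kept, PSMB8 had a median signal of 7.7, under the filter signal, and passed only through the replicate 2 clones 9 to 24, so a call for it restates what let it pass. IFITM1, IFIT3 and OAS1 were also near or under the filter signal in many cultures outside those where they were high. IFIT3 had a mean log2 level of 4.82, against 4.815 for the filter. Its DMSO and MDV3100 medians were 15.4 and 17.9 in replicate 2 clones 9 to 24 and 10.8 and 9.4 in all other cultures. A call of IFIT3 in those clones therefore restates in part what let it pass. OAS1 had medians of 13.2 and 12.7 in all other cultures. How far calls for IFITM1 and OAS1 restate what let them pass was not tested. Between cultures in DMSO the widest log2 ranges were those of IFI35 (2.88), HERC5 (2.65), PSMB8 (2.47) and ISG20 (2.37), and the narrowest among the kept members was that of IRF9 (0.66).

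**Figure D2:**
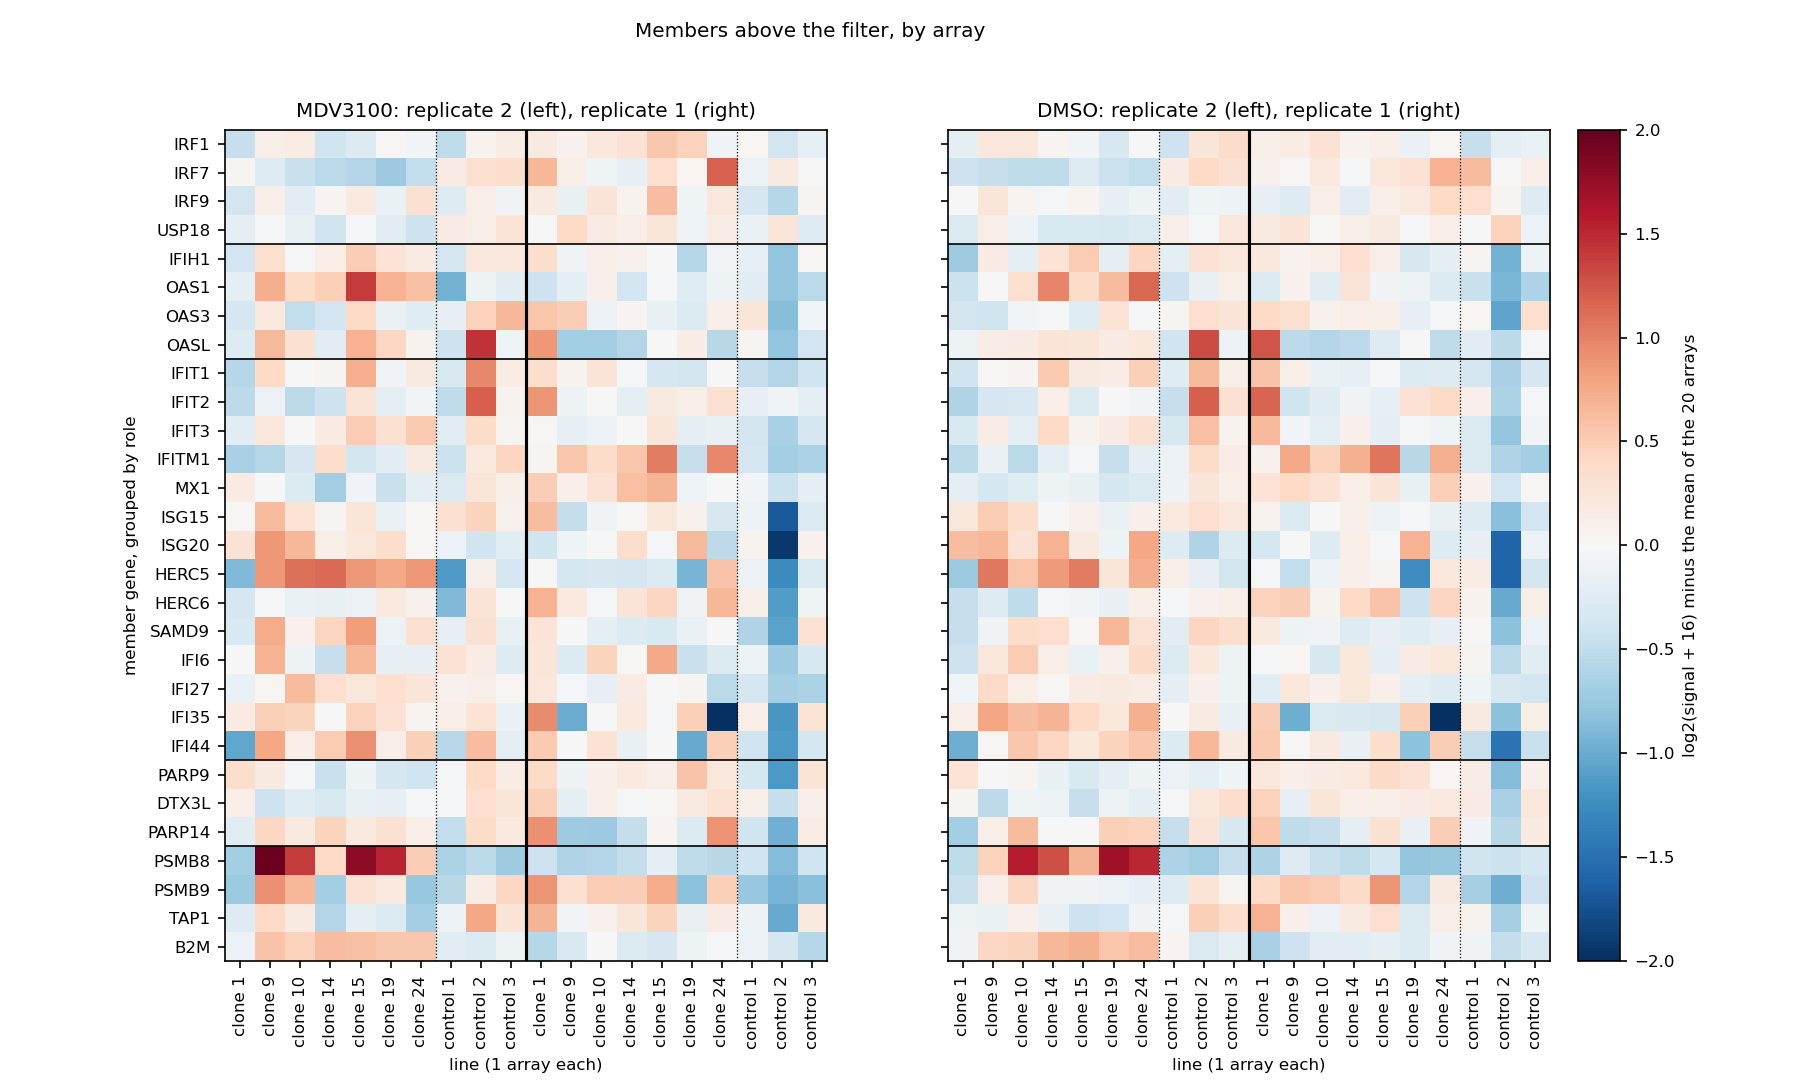
Log2(signal + 16) of each kept member in each of the 40 arrays after subtraction of the mean of that member over the 20 arrays of the treatment, with colours ending at 2 and -2, with members in rows by role and cultures in columns, replicate 2 left of replicate 1 and clones left of control lines. PSMB8, B2M, HERC5 and OAS1 are mostly higher in replicate 2 clones 9 to 24 than elsewhere, and IRF7 is mostly lower there, while OASL and IFIT2 stand out in replicate 1 of clone 1 and in the replicate 2 culture labelled control 2.

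Clones against control lines in DMSO asks whether interferon genes differ before the drug. As labelled, with each line as the mean of its 2 replicates, none of the 29 members passed limma's test (adjusted p under 0.05). Of all genes, 0.118% did (14 of 11853). The unadjusted p was under 0.05 for 9 of 29 members and for 2880 of 11853 genes. The difference was positive in 22 members and negative in 7, with a median of 0.17 against -0.01 over all genes. The largest positive ones were ISG20 at 0.72 ± 0.17 (SE; adjusted p = 0.0671), PSMB8 at 0.70 ± 0.19 (0.0848), OAS1 at 0.58 ± 0.17 (0.0906), HERC5 at 0.53 ± 0.26 (0.234) and PSMB9 at 0.47 ± 0.16 (0.116), and the largest negative one was IRF7 at -0.38 ± 0.09 (0.065). With clone 1 left out 6 of 29 members passed, where 17.9% of all genes did. With the replicate number as a block and the line as a random block, IRF7 (adjusted p = 0.0456), ISG20 (0.0256) and OAS1 (0.0382) passed, where 5.32% of all genes did. In bulk samples of this kind, fewer cells of a type and less RNA per cell cannot be told apart. The sets gave different members: replicate 1 arrays alone called OAS1 and PSMB9 higher, where 6.12% of all genes were called, and replicate 2 arrays alone called ISG20, PSMB8 and B2M higher and IRF7 lower, where 10.3% were.

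**Figure D3:**
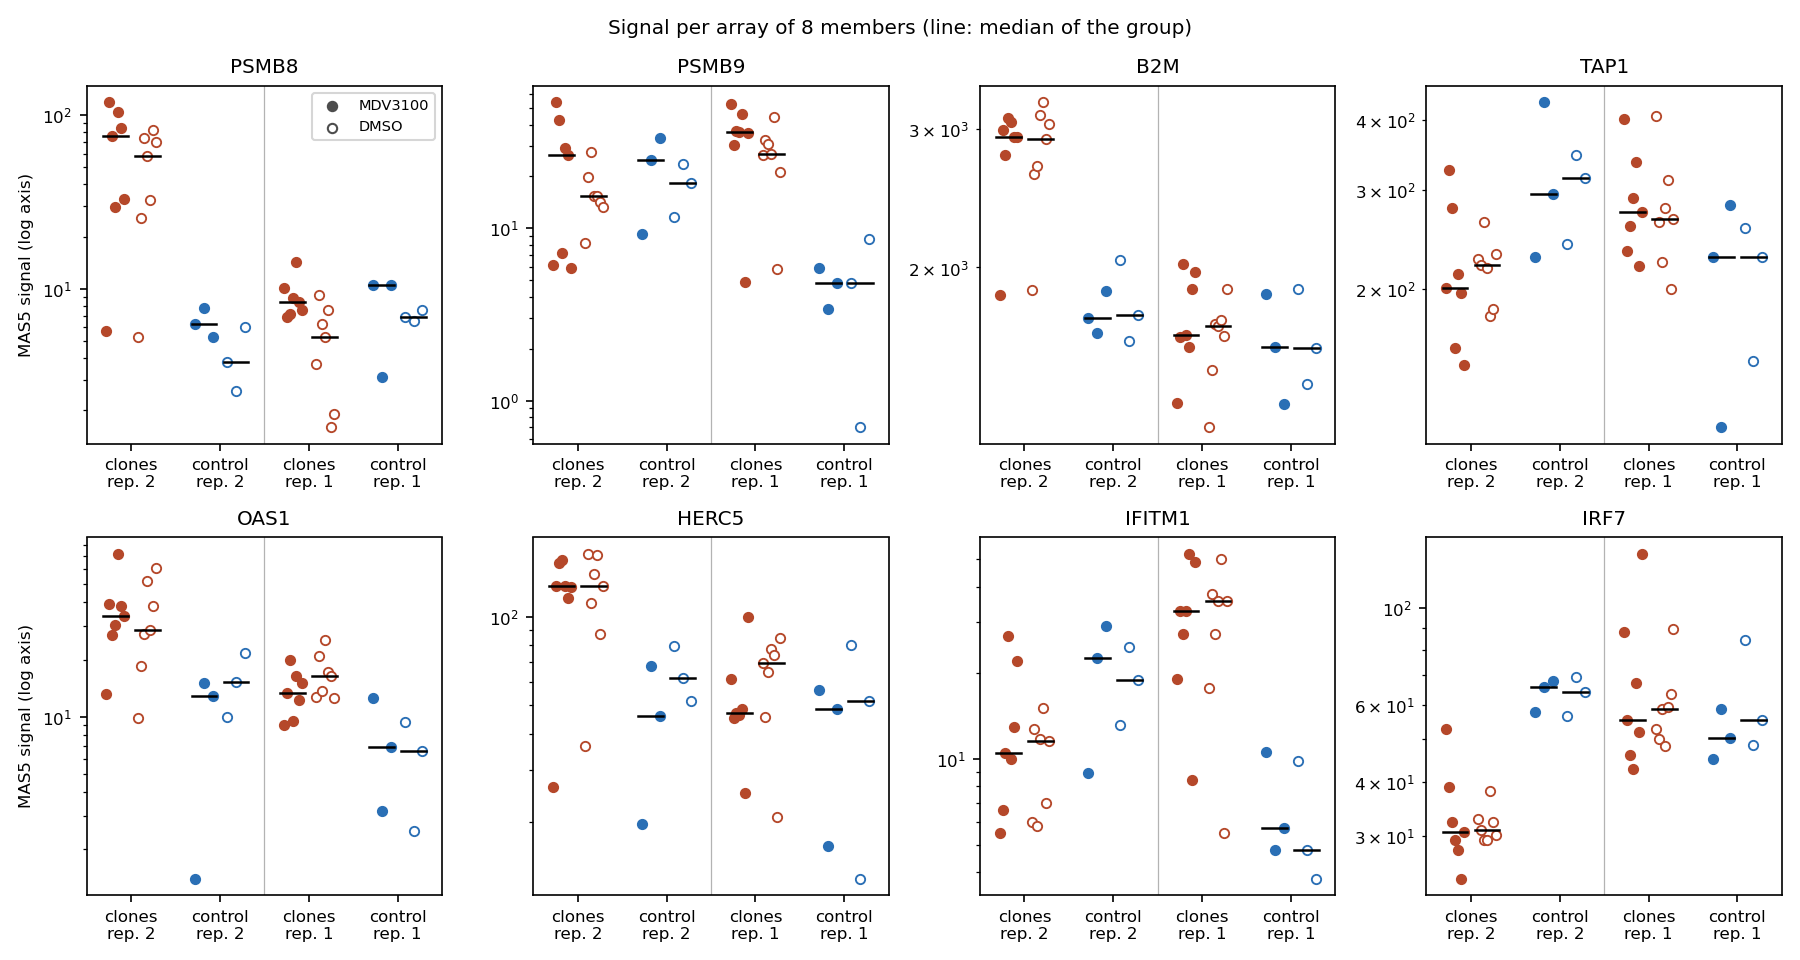
Signal on log axes of selected members in every array, clones left and control lines right, with MDV3100 arrays as filled and DMSO arrays as open points and replicate 2 drawn left of replicate 1; each line is the median of its group. The PSMB8 points of replicate 2 clones 9 to 24 lie between 25.6 and 118.6 and every other PSMB8 point lies at or below 14.3.

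The immunoproteasome subunits split by replicate set. In replicate 1, PSMB9 had DMSO signals of 26.7, 32.5, 30.9, 27.1, 44.5, 5.8 and 21.2 in clones 1, 9, 10, 14, 15, 19 and 24, against 4.8, 0.7 and 8.7 in control lines 1, 2 and 3. Clone 19 lay among the control lines, and the other 6 clones lay above all of them. PSMB9 was called higher in the replicate 1 clones, by 1.01 ± 0.25 (SE; limma adjusted p = 0.0429), but not in replicate 2, where the difference was -0.07 ± 0.17 (0.792). In replicate 2 its signals were 8.2 to 27.9 (median 15.4) in clones against 11.6, 23.6 and 18.2 in control lines, so the groups overlapped. PSMB8 did the reverse. Its replicate 2 DMSO signals were 5.3, 25.6, 73.6, 57.9, 32.3, 81.7 and 70.0 in clones 1, 9, 10, 14, 15, 19 and 24, against 3.8, 2.6 and 6.0 in the control lines. All 6 of clones 9 to 24 lay above every control line, and the culture labelled clone 1 lay among them. The replicate 2 difference was 1.55 ± 0.40 (SE; limma adjusted p = 0.0396), a call that restates what let PSMB8 pass the filter. In replicate 1 it was -0.14 ± 0.12 (0.491), with signals of 1.6 to 9.2 (median 5.3) in clones and 6.9, 6.5 and 7.6 in control lines, all below the filter signal.

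B2M followed PSMB8. In replicate 2 its DMSO signals were 1871.4, 2635.5, 2694.4, 3132.2, 3249.5, 2914.1 and 3045.1 in clones 1, 9, 10, 14, 15, 19 and 24, against 2045.6, 1611.7 and 1737.4 in control lines 1, 2 and 3. Clones 9 to 24 lay above every other culture of either set, where the highest DMSO signal was 2045.6, and the culture labelled clone 1 lay within the control range. The replicate 2 difference was 0.62 ± 0.16 (SE; limma adjusted p = 0.0419), against -0.01 ± 0.13 (0.98) in replicate 1. TAP1 was called in neither set: its difference was -0.43 ± 0.14 (adjusted p = 0.0677) in replicate 2 and 0.38 ± 0.20 (0.265) in replicate 1.

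Among transcription factors and signalling genes, IRF7, which drives interferon genes themselves, was the only one of 4 called within a replicate set in DMSO, in replicate 2. There its signals were 29.5 to 38.1 (median 31.0) in the 7 clones, against 56.6, 69.5 and 64.3 in the control lines, without overlap. The difference was -0.73 ± 0.10 (SE; limma adjusted p = 0.0114). In replicate 1 the clones had 48.3 to 89.5 (median 58.7) against 84.4, 48.5 and 55.5 in control lines, which overlapped, and the difference was -0.04 ± 0.17 (0.909). USP18, a protease that removes ISG15 from proteins and damps interferon receptor signalling, had signals of 119.5 to 167.4 (median 122.2) in replicate 2 clones against 168.0, 150.6 and 183.0 in control lines, with a difference of -0.33 ± 0.12 (0.0914). The differences of IRF1 and IRF9 were 0.14 and 0.07 over both sets (adjusted p = 0.502 and 0.629).

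Of the sensors of viral RNA, OAS1, an oligoadenylate synthetase that activates RNase L, was called in replicate 1. Its DMSO signals there were 12.6 to 25.5 (median 16.4) in clones and 9.4, 2.5 and 6.6 in control lines, with every clone above every control line. Several of these lie near or below the filter signal of 12.1. The difference was 0.57 ± 0.14 (SE; limma adjusted p = 0.0371). In replicate 2 the clones had 9.9 to 60.8 (median 28.6) against 10.0, 15.3 and 21.7, which overlapped, with a difference of 0.58 ± 0.29 (0.177). OAS3 and IFIH1, the RNA sensor MDA5, were not called; OAS3 had 135.8 to 209.6 in replicate 1 clones and 159.5, 66.2 and 199.8 in the control lines, so 1 control line was low.

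Among the 14 antiviral effectors kept, ISG20, an exonuclease that degrades RNA, was called in replicate 2. Its signals were 116.8 to 225.5 (median 201.5) in clones against 103.2, 77.6 and 101.1 in control lines, without overlap, and the difference was 0.82 ± 0.19 (SE; limma adjusted p = 0.031). IFITM1, a membrane protein that blocks viral entry, had replicate 1 DMSO signals of 17.7, 37.6, 27.3, 35.7, 50.2, 5.5 and 35.7 in clones 1, 9, 10, 14, 15, 19 and 24, against 9.8, 4.8 and 3.8 in control lines. Again only clone 19 fell within the control range, and the difference of 0.99 ± 0.29 had an adjusted p of 0.0623. In replicate 2 the IFITM1 difference was -0.42 ± 0.15 (0.0783). ISG15, a ubiquitin-like protein joined to other proteins, had 390.7 to 513.2 (median 467.9) in replicate 1 clones against 395.9, 262.2 and 364.2 in control lines, a difference of 0.43 ± 0.13 (0.0628). IFIT2 and OASL marked cultures rather than groups: their DMSO signals were 165.2 and 76.9 in replicate 1 of clone 1 and 170.2 and 80.6 in the replicate 2 culture labelled control 2. The PARP9 complex, in which PARP9 and the ubiquitin ligase DTX3L support interferon signalling, and PARP14 gave no call; DTX3L had 509.5 to 764.8 (median 680.9) in replicate 2 clones against 719.6, 869.0 and 940.6 in control lines, a difference of -0.38 ± 0.14 (0.0915).

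The calls within a set rest on few lines. In replicate 1, OAS1 and PSMB9 were both lost without control 1, 2 or 3 or clone 9, 10, 14 or 15. Over all genes, calls higher and lower fell from 432 and 293 to 64 and 55 without control 1. They were 51 and 65 without control 2 and 52 and 49 without control 3. Without clone 9 they were 220 and 189, and without clone 10 177 and 141. Without clone 14 they were 167 and 144, and without clone 15 128 and 111. Without clone 24, 1 member was called, and without clone 19, 5 were. Of all genes, 298 were called higher and 238 lower without clone 24, and 758 and 511 without clone 19. In replicate 2, none of the 4 members remained called without control 2 or control 3, 1 was called without clone 14, clone 15 or clone 24, 2 without clone 10 or clone 19, and 10 of 29 without clone 1, where 32.7% of all genes were called. Counts over all genes for the other lines left out of replicate 2 are not given here. These losses are therefore not read as particular to the members. Without the replicate 2 cultures labelled clone 1 and control 2, the comparison over both sets again called none by limma. The unadjusted p was then under 0.05 for 14 of 29 members and for 2676 of 11853 genes. Without these cultures and the replicate 2 culture labelled control 3, limma called 4 members, where 5.95% of all genes were called. They were IFI44 at 1.00 (adjusted p = 0.0322), OAS1 at 0.84 (0.0226), PSMB9 at 0.82 (0.03) and IFIT1 at 0.55 (0.0388). Clone and set differences cannot be fully told apart in that last fit.

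Clones against control lines in MDV3100 asks the same under the drug. As labelled, 4 of 29 members were higher in the clones, where 8.96% of all genes were called and 4.7% were called higher: OAS1, HERC5, HERC6 and PSMB8. The unadjusted p was under 0.05 for 11 of 29 members and for 3272 of 11853 genes. Differences were positive in 23 members and negative in 6, with a median of 0.26 against -0.01 over all genes. HERC5 is the main ligase that attaches ISG15 to proteins, and HERC6 is a related protein.

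The clone difference of PSMB8, HERC5 and OAS1 was larger in replicate 2 than in replicate 1, and the change between the sets was, as labelled, called for PSMB8 alone of these 3. PSMB8 had 5.7, 118.6, 76.0, 29.7, 104.5, 83.9 and 33.1 in replicate 2 clones 1, 9, 10, 14, 15, 19 and 24, against 6.3, 7.8 and 5.3 in control lines. HERC5 had 26.3, 127.7, 152.7, 156.1, 127.1, 116.4 and 126.5 in the same clones, against 19.7, 67.9 and 46.1 in control lines. OAS1 had 13.2, 39.4, 27.1, 30.6, 72.2, 38.1 and 33.8, against 1.4, 15.0 and 12.9. In each of the 3 genes clones 9 to 24 lay above all control lines, and the culture labelled clone 1 lay within the control range. The differences over both sets were 0.84 ± 0.24 (SE; limma adjusted p = 0.0497) for PSMB8, 0.72 ± 0.20 (0.0444) for HERC5 and 0.67 ± 0.16 (0.0294) for OAS1. Within sets, PSMB8 and OAS1 were called in replicate 2, by 1.61 ± 0.48 (0.0403) and 1.00 ± 0.29 (0.0366), and not in replicate 1, where the differences were 0.07 ± 0.14 (0.76) and 0.34 ± 0.16 (0.158). HERC5 was called in neither set alone, with 1.13 ± 0.40 (0.0654) in replicate 2 and 0.32 ± 0.29 (0.473) in replicate 1.

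HERC6 had 129.1 to 193.3 (median 153.7) in replicate 2 clones against 83.8, 204.2 and 168.9 in control lines, and 159.3 to 279.8 (median 203.3) in replicate 1 clones against 181.9, 68.8 and 158.9. The groups overlapped in both sets, with a low control line in each. Its difference of 0.40 ± 0.11 had an adjusted p of 0.0497 over both sets and of 0.661 in replicate 2 and 0.104 in replicate 1 alone. Without the replicate 2 cultures labelled clone 1 and control 2, limma called 6 members, where 8.26% of all genes were called, among them HERC5 at 1.02 (0.0182), OAS1 at 0.77 (0.0326) and PSMB8 at 0.91 (0.037), while HERC6 was not called (0.0642). Without these and the replicate 2 culture labelled control 3 it called 11, where 15.2% of all genes were called, all of them higher in the clones: the 4 above with HERC6 at 0.71 (0.0421), and PSMB9 (1.10), IFI44 (0.92), IFITM1 (0.72), IFI27 (0.60), IFIT1 (0.57), IFIT3 (0.53) and IRF1 (0.36). Control 2 and control 3 then rest on replicate 1 alone, while clones 9 to 24 average both sets. Clone and set differences cannot be fully told apart in that fit. As labelled, none of the 4 called members remained called without control 1, control 2, control 3, clone 9 or clone 10. With every line, 557 of all genes were called higher and 505 lower. Without control 1 these counts were 2 and 6, without control 2 138 and 187, and without control 3 118 and 77. Without clone 9 they were 241 and 232, and without clone 10 260 and 253. Calls thus fell over all genes too. Without clone 14 or clone 15, 1 member was called, and 2 were without clone 24. Over all genes the calls were 240 higher and 219 lower without clone 14. They were 211 and 180 without clone 15 and 552 and 499 without clone 24.

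Replicate 1 arrays alone called PSMB9 and IFITM1 in MDV3100, where 9.01% of all genes were called, and the difference was positive in all 29 members and in 55.9% of all genes. Without control 2 it was positive in 24 members, and negative in HERC5, IFI35, ISG20, OASL and PSMB8. The MDV3100 array of control 2 in this set had the highest actin ratio of the series, 6.59. The part of RNA quality in these signs was not tested. PSMB9 had 52.6, 30.4, 36.7, 36.1, 46.1, 4.9 and 35.5 in clones 1, 9, 10, 14, 15, 19 and 24, against 5.9, 3.4 and 4.8 in control lines, a difference of 1.21 ± 0.29 (SE; limma adjusted p = 0.0283). IFITM1 had 19.0, 33.0, 27.4, 33.0, 52.2, 8.4 and 49.0, against 10.6, 4.8 and 5.7, a difference of 0.99 ± 0.27 (0.0439). As in DMSO, clone 19 alone lay within the control range of both genes. All these control signals lay below the filter signal of 12.1. The call count fell to none without control 1, control 2, clone 10, clone 14 or clone 15. It was 1 without clone 1 or clone 9 and 5 without control 3. Of all 11853 genes, 1583 were called higher and 1421 lower without control 3. The counts were 438 and 215 without clone 1 and 618 and 438 without clone 9. They were 119 and 53 without control 1, 42 and 47 without control 2 and 336 and 178 without clone 10. Without clone 14 they were 265 and 148, and without clone 15 307 and 151.

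Replicate 2 arrays alone called 6 members in MDV3100, where 19.6% of all genes were called: ISG20, OAS1, PSMB8 and B2M higher and IRF7 and USP18 lower. B2M had 1846.7 to 3099.0 (median 2936.4) in clones against 1723.3, 1650.6 and 1868.6, a difference of 0.66 ± 0.16 (SE; limma adjusted p = 0.0235). ISG20 had 148.1 to 278.5 (median 181.6) against 134.0, 107.5 and 124.9, without overlap, a difference of 0.60 ± 0.18 (0.0407). IRF7 had 24.0 to 52.7 (median 30.7) against 57.8, 65.9 and 67.9, and USP18 had 102.8 to 140.0 (median 121.7) against 160.9, 156.3 and 176.1. Both were lower in every clone than in every control line, with differences of -0.70 ± 0.16 (0.0212) and -0.39 ± 0.12 (0.0459). No member stayed called when control 1, control 2 or control 3 was left out, 2 did without clone 14, clone 15 or clone 19, and 3 without clone 10 or clone 24. Over all genes 854 were called higher and 1472 lower with every line, and 133 and 360 without control 1. Counts over all genes without the other lines are not given here. The losses are therefore not read as particular to the members.

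**Figure D4:**
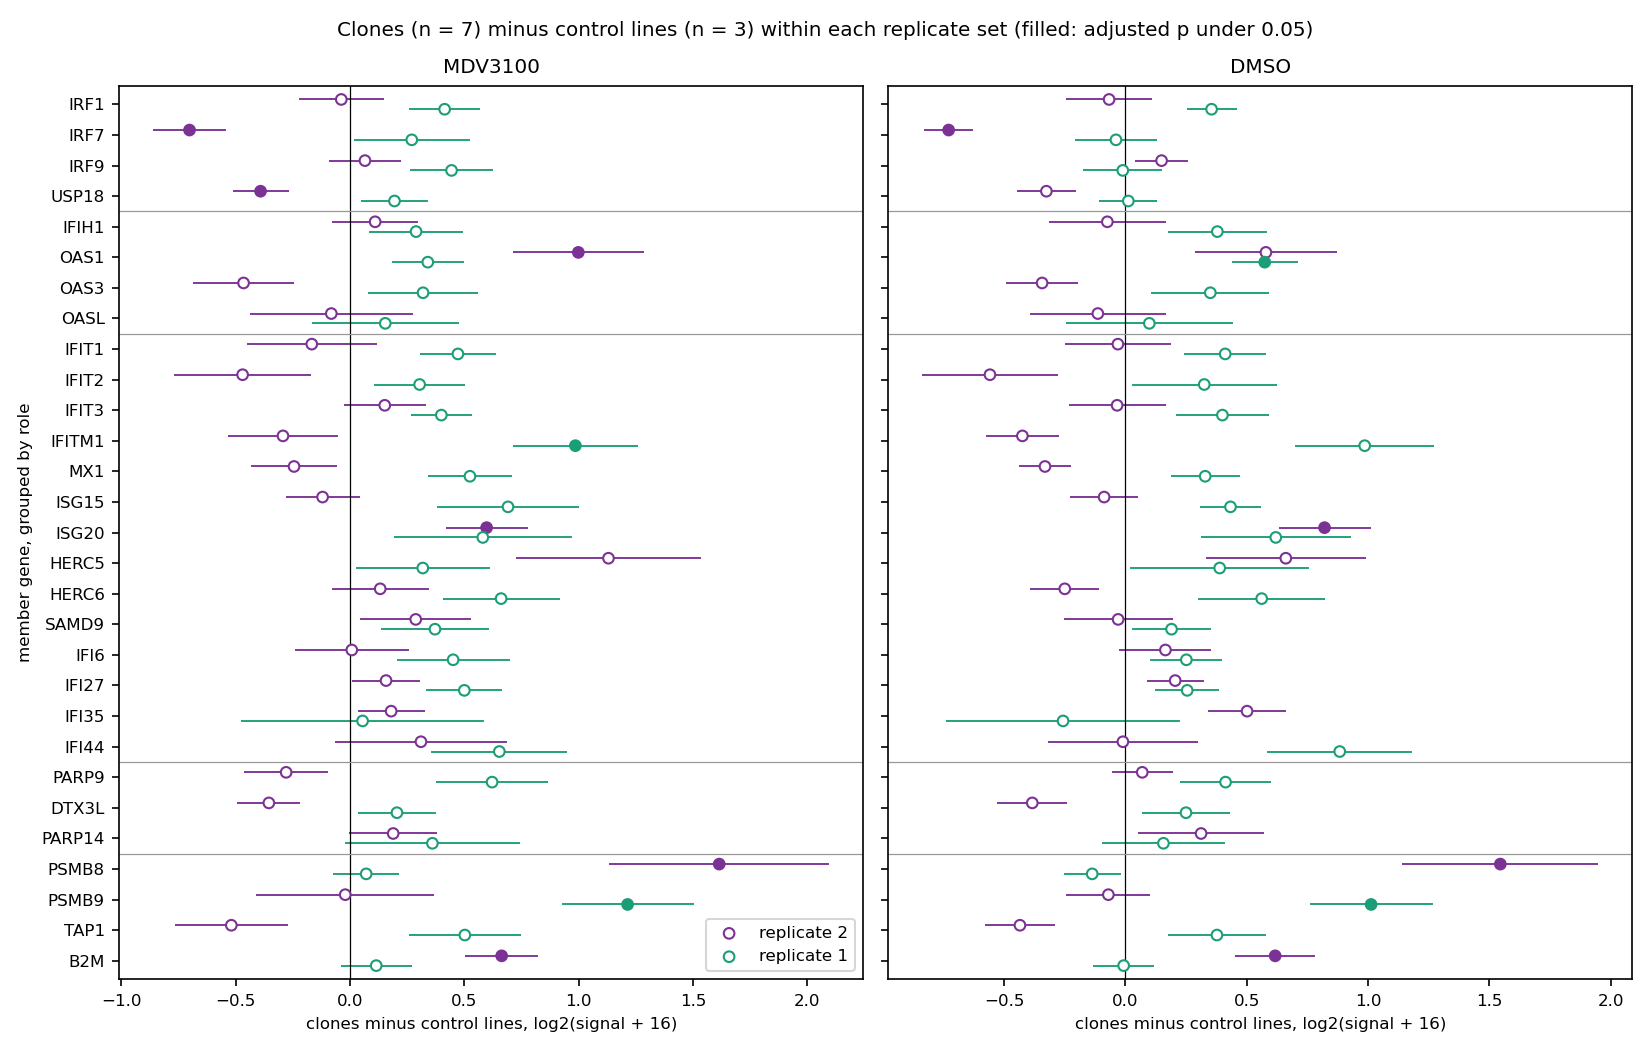
Difference of clones from control lines, log2(signal + 16), for each kept member within replicate 2 and within replicate 1, in MDV3100 (left) and DMSO (right), with bars for the SE and filled points for an adjusted p under 0.05. PSMB8 and B2M lie above 0 in replicate 2 and near 0 in replicate 1, and PSMB9, IFITM1, TAP1 and MX1 lie above 0 in replicate 1 and at or below 0 in replicate 2.

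The change of the clone difference between the sets was tested itself, as replicate 2 minus replicate 1. Calls of PSMB8 in this test restate what let it pass the filter. In MDV3100 it was called for 7 members, where 34.8% of all genes were called, and in DMSO for 7, where 23.0% were, so the share of members, 7 of 29, is near or below the background. The change was negative in 23 members in MDV3100 and 21 in DMSO, with medians of -0.44 and -0.42 against -0.14 and -0.09 over all genes. In MDV3100 the change was 1.54 ± 0.53 (SE; limma adjusted p = 0.0315) for PSMB8, and it was negative for IFITM1 (-1.28, 0.0181), TAP1 (-1.02, 0.0371), IRF7 (-0.97, 0.024), PARP9 (-0.90, 0.0369), MX1 (-0.77, 0.0334) and USP18 (-0.59, 0.0201). In DMSO it was 1.68 ± 0.45 (0.0146) for PSMB8 and 0.62 ± 0.21 (0.0403) for B2M, and negative for IFITM1 (-1.41, 0.00859), PSMB9 (-1.08, 0.0227), TAP1 (-0.81, 0.0299), IRF7 (-0.69, 0.019) and MX1 (-0.66, 0.0146). Without the replicate 2 cultures labelled clone 1 and control 2, 7 were called in MDV3100, where 35.1% of all genes were called, and 5 in DMSO, where 27.0% were and PSMB9 (0.0603) and TAP1 (0.0685) were lost. Without the one labelled control 3 as well, 3 were called in MDV3100, where 25.3% of all genes were: PSMB8 at 1.83 (0.0192), HERC5 at 1.75 (0.0177) and OAS1 at 1.31 (0.0167). In DMSO PSMB8 alone was called, at 1.95 (0.0137), where 6.02% of all genes were, so the changes of IFITM1, TAP1, IRF7 and MX1 were lost in both treatments.

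Set against set, over all 20 cultures with class as a term, 7 members were higher and 2 lower in replicate 2 than in replicate 1, where 38.6% of all genes were called. B2M differed by 0.56 ± 0.11 (SE; limma adjusted p = 8.6e-04), PSMB8 by 0.99 ± 0.25 (0.00462), OAS1 by 0.54 ± 0.13 (0.00381) and HERC5 by 0.67 ± 0.23 (0.0296). IFI27 (0.27), SAMD9 (0.37), a growth-restraining antiviral factor, and ISG15 (0.39) were also higher, and IRF7 (-0.44) and MX1 (-0.28), a GTPase that traps viral particles, were lower. Paired by line label as a replicate block, B2M, PSMB8, OAS1, IFI27 and IRF7 passed, where 26.3% of all genes did. Both calls of PSMB8 between the sets restate what let it pass the filter.

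Within clones 9 to 24, 11 members were higher and 7 lower in replicate 2, where 58.2% of all genes were called. Among those higher were PSMB8 at 1.73 ± 0.12 (SE; limma adjusted p = 1.9e-07), HERC5 at 1.10 ± 0.19 (0.000257), IFI35 at 0.91 ± 0.32 (0.0256), B2M at 0.77 ± 0.07 (1.6e-06), OAS1 at 0.74 ± 0.10 (3.7e-05), OASL at 0.66 ± 0.13 (0.00077), SAMD9 at 0.48, IFI44 at 0.45, IFIT1 at 0.32, IFIT3 at 0.29 and IFI27 at 0.26. Those lower were IFITM1 at -0.72 ± 0.21 (0.0097), IRF7 at -0.71 ± 0.14 (7.2e-04), MX1 at -0.51, USP18 at -0.34, PARP9 at -0.34, HERC6 at -0.33 and DTX3L at -0.32. Members thus moved in both directions, and neither direction held for a whole role except that all 4 transcription factor and signalling genes kept had negative differences. The replicate 2 cultures labelled clone 1 and control 2 have no part in this comparison. PSMB8 passed the filter only through replicate 2 clones 9 to 24, so its call here restates what let it pass. The call of IFIT3 does so in part.

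In the 3 control lines 28 of 29 differences between replicate 2 and replicate 1 were positive, with a median of 0.31 against 0.01 over all genes, and limma called only PSMB9, at 0.78 ± 0.19 (SE; adjusted p = 0.0473), where 9.41% of all genes were called. Its DMSO signals were 11.6, 23.6 and 18.2 in replicate 2 and 4.8, 0.7 and 8.7 in replicate 1 of control lines 1, 2 and 3. Without the replicate 2 culture labelled control 2 the PSMB9 difference was 0.68 and not called (0.147). Replicate 1 of control 2 was the lowest of the 6 control arrays in DMSO for OAS3 (66.2), ISG20 (30.8), HERC5 (12.8), HERC6 (79.7) and IFI35 (54.4).

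The drug response asks whether 24 h of MDV3100 changes these genes. In the clones none of 29 members was called by limma over both sets, where 0.801% of all genes were. The unadjusted p was under 0.05 for 5 members and for 1820 of 11853 genes. In the control lines none was called, where 10.1% of all genes were. There 3 members and 3108 genes had an unadjusted p under 0.05. The difference of the responses, clones minus control lines, was called for none, where 0.717% of all genes were. Its unadjusted p was under 0.05 for no member and for 1747 genes. Median responses were 0.07 in clones and -0.01 in control lines, against 0.00 and 0.01 over all genes. The lowest adjusted p in the clones was that of OAS3, at -0.30 ± 0.08 (SE; limma adjusted p = 0.0832). With the replicate number as a block, OAS3 (0.043) and IRF1 (0.25 ± 0.06 SE, 0.034), a transcription factor of the interferon gamma response, passed in the clones, where 2.46% of all genes did. The OAS3 response was negative in all 10 replicate 1 cultures, between -0.67 in control 3 and -0.07 in control 1, and in replicate 2 it was positive in clone 9 (0.32), clone 15 (0.38) and control 3 (0.13) alone.

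In replicate 1 alone, IFI35, an interferon-induced leucine zipper protein, was called higher in MDV3100 in the clones, by 0.39 ± 0.08 (SE; limma adjusted p = 0.0382), where 1.4% of all genes were called. Its MDV3100 signals in clones 1, 9, 10, 14, 15, 19 and 24 were 250.5, 53.8, 122.8, 142.1, 120.8, 176.2 and 18.6, against DMSO signals of 158.9, 46.8, 85.8, 84.8, 83.3, 155.7 and 13.1. All 7 clones were higher in MDV3100, although the clones differed among themselves by far more than the response. The call was lost without control 1, clone 1, clone 10, clone 14, clone 15 or clone 19. Over all genes, 56 were called higher and 80 lower without control 1, and 64 and 104 without clone 1. These counts were 22 and 41 without clone 10 and 17 and 35 without clone 14. They were 20 and 36 without clone 15 and 33 and 48 without clone 19. Without control 3, 2 members were called, where 108 of all genes were called higher and 174 lower. In replicate 2 the response was -0.07 ± 0.10 (0.903).

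**Figure D5:**
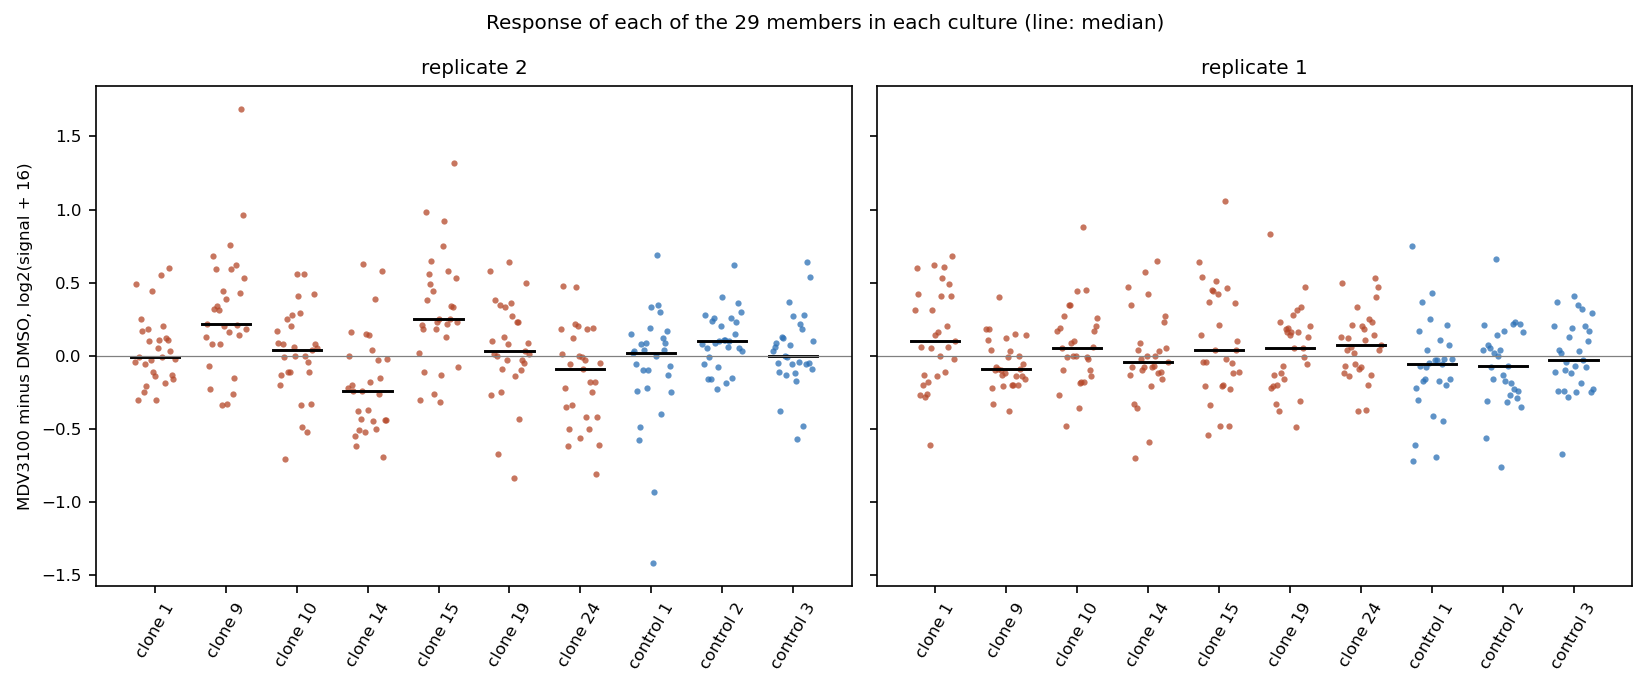
Response of each kept member to MDV3100, MDV3100 minus DMSO in log2(signal + 16), in each culture, clones left of control lines and replicate 2 left of replicate 1. Replicate 2 of clones 9 and 15 are mostly positive and replicate 2 of clones 14 and 24 mostly negative.

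Single cultures gave different response values. The median response of the 29 members was 0.25 in replicate 2 of clone 15 and 0.224 in replicate 2 of clone 9, with 23 members positive and 6 negative in each. It was -0.236 in replicate 2 of clone 14, with 7 positive and 21 negative, and -0.094 in clone 24, with 10 positive and 19 negative. Every other culture had a median between -0.092 and 0.1. PSMB8 responded by 1.69, 0.04, -0.69, 1.32, 0.03 and -0.81 in replicate 2 clones 9, 10, 14, 15, 19 and 24. OAS1 responded by 0.68, -0.01, -0.55, 0.98, 0.00 and -0.62 in the same order, and PSMB9 by 0.96, 0.42, -0.44, 0.53, 0.50 and -0.42. The values fall into the pairs 9 and 15, 10 and 19, and 14 and 24. Response profiles of these pairs correlated across the 29 members at r = 0.780, 0.802 and 0.634 and across all 11853 genes at 0.585, 0.664 and 0.704, while the other 12 pairs of these 6 clones lay between -0.118 and 0.063 over all genes and between -0.581 and 0.147 over the members. In replicate 1 the same pairs had r = -0.087, 0.220 and 0.136 over all genes. With 1 array per culture and treatment, the response of a culture has no replicate check.

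Other genes of the pathway were taken from lists of receptors, sensors, further interferon-stimulated genes and antigen presentation genes. Interferon receptors and JAK-STAT genes, with 12 of 16 listed genes kept, gave no call between clones and control lines over both sets by limma. The unadjusted p was under 0.05 for 1 of them in MDV3100 and 2 in DMSO. Over all 11853 genes it was under 0.05 for 3272 and 2880, the background for such counts in these lists. JAK1 had signals of 13.0 to 47.8 over the 40 arrays, and its difference in DMSO was 0.11 (limma adjusted p = 0.4475); no comparison over both sets called it. IFNAR2, a chain of the type I interferon receptor, had DMSO signals of 102.7 to 133.9 (median 114.6) in replicate 2 clones 9 to 24, against 235.8 to 288.5 (median 260.0) in replicate 1 of the same clones, without overlap. It differed between the sets by -0.94 ± 0.10 (SE; adjusted p = 3.4e-06), and IFNAR1, the other chain, by -0.49 ± 0.08 (2.6e-04).

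The share of all genes called in MDV3100 over both sets, 8.96%, is the background for the counts of the lists that follow. Of 11 nucleic acid sensing genes kept, 1 was lower in the clones in MDV3100 and none was called in DMSO by limma, with 2 at an unadjusted p under 0.05; the ubiquitin ligase TRIM25, which activates the sensor RIG-I, differed by -0.39 ± 0.10 (SE; adjusted p = 0.0395). In the control lines RIGI itself was higher in MDV3100, by 0.43 ± 0.08 (0.00604). Of 30 other interferon-stimulated genes kept, 3 were higher and 1 lower in the clones in MDV3100. The higher ones were the guanylate-binding proteins GBP2 (1.25 ± 0.31, 0.0315), GBP3 (0.66 ± 0.17, 0.0351) and GBP1 (0.64 ± 0.12, 0.0138), and the lower one was TRIM14 (-0.57 ± 0.13, 0.026). GBP2 had MDV3100 signals of 402.1 to 1075.3 (median 664.9) in replicate 2 clones 9 to 24 and of 48.8 to 285.2 (median 143.6) in all other cultures, without overlap. It was also higher in MDV3100 than in DMSO in the clones, by 0.48 ± 0.09 (0.0393).

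IFITM2 and IFITM3, relatives of IFITM1, and LGALS3BP, a secreted glycoprotein, changed with the set. In replicate 1 in MDV3100 the clones were higher than the control lines by 2.19 ± 0.60 for IFITM2 (SE; limma adjusted p = 0.044), 1.15 ± 0.31 for IFITM3 (0.0403) and 1.63 ± 0.47 for LGALS3BP (0.0493). In replicate 2 the clones were lower for IFITM3, by -1.06 ± 0.16 (0.0104). The change of the clone difference between the sets was -3.44 ± 0.81 for IFITM2 (0.00625), -2.21 ± 0.37 for IFITM3 (0.00135) and -2.16 ± 0.58 for LGALS3BP (0.0115) in MDV3100. Among 15 other antigen presentation genes kept, HLA-DMA (0.55 ± 0.15, 0.0435) and the immunoproteasome subunit PSMB10 (0.43 ± 0.11, 0.0351) were higher in the clones in MDV3100, and none was called in DMSO by limma, with 7 at an unadjusted p under 0.05. HLA-G, a class I molecule, had DMSO signals of 206.1 to 341.9 in replicate 2 clones 9 to 24 against 74.7 to 146.3 in all other cultures, without overlap, and MDV3100 signals of 205.5 to 336.1 against 76.6 to 224.3, which overlapped.

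Vimentin (VIM), a mesenchymal filament protein that LNCaP makes little of, was also mostly higher in replicate 2 clones 9 to 24. Between the sets in these clones 58.2% of all genes were called. In MDV3100 its signals were 395.1 to 695.0 (median 562.5) in replicate 2 clones 9 to 24 and 26.2 to 311.0 (median 83.4) in all other cultures, and in DMSO 199.2 to 625.5 (median 318.4) against 29.4 to 292.5 (median 69.0). The groups did not overlap in MDV3100 and overlapped in DMSO. The other markers of androgen receptor negative prostate lines stayed low over the 40 arrays, with at most 20.8 for CD44, 5.8 for AXL, 7.6 for CAV1, 8.2 for KRT5 and 28.8 for KRT14. KRT14 had a median of 13.4 in replicate 2 clones 9 to 24 and 8.0 in all other cultures in MDV3100, and of 12.2 and 8.1 in DMSO, and the groups overlapped in both. The part of VIM or KRT14, or of cells that make them, in the results on PSMB8, B2M and HERC5 was not tested.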

How the data were processed

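The authors deposited linear signal intensity per probe set. The submitters' processing notes name MAS5, without a version in what was used here. After trimming 2% at each end, each array had a mean of 150, so no further normalization was applied. All 40 columns were matched to a sample by identifier, with 0 unmapped. The scale for all fits was log2(signal + 16). A probe set was kept where its mean was at or above the median mean, log2 4.815 or a signal of 12.1, which held for 27338 of 54675. In the platform annotation 41097 probe sets had 1 gene, 1801 several and 11777 none; 42 gene identifiers had no current match. Probe sets whose names end in _s_at or _x_at can match several transcripts, and the table used here holds no detection calls. The number of arrays limits the precision.

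Comparisons were fitted with limma 3.58.1 in R 4.3.3 on line means, 7 clones against 3 control lines, for MDV3100 and DMSO levels and for the responses. The replicate sets were compared over the 20 cultures with class as a term. P-values were adjusted by Benjamini-Hochberg over all 11853 genes, and an adjusted p under 0.05 was a call. The fit was tested on simulated data. Within-set fits, fits without each line, a replicate block, other pseudocounts, no filter, quantile normalization and an intensity trend were alternatives. The test of the change between sets, the comparison within clones 9 to 24 and within control lines, the fits within a set without each line and those without the replicate 2 culture labelled control 3 were chosen after seeing the data. The replicate number joins the MDV3100 and DMSO arrays of a line: the 20 pairs deviated together from their group means, with r across genes of 0.479 to 0.874 (median 0.782). Named members were those called in any of the comparisons, the 4 of widest range in DMSO and the brightest of each role; others are named as members of a role. Of the other lists, up to 3 called genes per comparison were named, and JAK1 always; VIM and other markers were added after seeing their values. The members and lists were chosen with earlier results of these data known. No arrays were identical.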

Additional observations from a re-analysis of the deposited data

Results flagged for a closer look

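Of 96 groups of samples examined for 16 named members, 15 had a sample far from the others, where chance gives about 1 in 20. Replicate 1 of control 2 was low among the control lines in 8 of them. In MDV3100 it had 148.0 for ISG15 (next 416.3), 26.8 for ISG20 (next 107.5) and 45.6 for IFI35 (next 110.6). In DMSO it had 66.2 for OAS3 (next 159.5), 30.8 for ISG20 (next 77.6), 12.8 for HERC5 (next 51.5), 79.7 for HERC6 (next 173.9) and 54.4 for IFI35 (next 95.5). The actin ratio of this culture, the sign of RNA quality given above, was 6.59 in MDV3100, the highest of the series, and 3.18 in DMSO. The part of RNA quality in these low values was not tested. The replicate 2 culture labelled clone 1 was low among the clones for B2M, at 1846.7 in MDV3100 (next 2782.2) and 1871.4 in DMSO (next 2635.5), and for HERC5 in MDV3100, at 26.3 (next 116.4). Clone 19 was low for PSMB9 in replicate 1 in MDV3100, at 4.9 (next 30.4). In DMSO clone 24 was high for IRF7 in replicate 1, at 89.5 (next 63.4), clone 15 for IRF7 in replicate 2, at 38.1 (next 32.9), and clone 1 for SAMD9 in replicate 1, at 58.3 (next 45.7).

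The clone difference changed between the replicate sets for 7 members in each treatment, by limma's test of the change itself, where 34.8% of all genes were called in MDV3100 and 23.0% in DMSO, so 7 of 29 is near or below the background. In MDV3100 the change, replicate 2 minus replicate 1, was 1.54 for PSMB8, -1.28 for IFITM1, -1.02 for TAP1, -0.97 for IRF7, -0.90 for PARP9, -0.77 for MX1 and -0.59 for USP18. In DMSO it was 1.68 for PSMB8, 0.62 for B2M, -1.41 for IFITM1, -1.08 for PSMB9, -0.81 for TAP1, -0.69 for IRF7 and -0.66 for MX1. Calls of PSMB8 restate what let it pass the filter. Without the replicate 2 cultures labelled clone 1 and control 2, 7 members were called in MDV3100 and 5 in DMSO. Without the one labelled control 3 as well, fewer were called, with 1 control culture left in replicate 2.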

How the results depend on the processing

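The number of members called between clones and control lines in MDV3100 was 4, and was 2 in replicate 1 alone, 1 with a pseudocount of 64, 1 with no filter and 0 to 6 with a line left out. In DMSO it was 0, and was 2 in replicate 1 alone, 4 in replicate 2 alone, 3 with the replicate block and 0 to 6 with a line left out. The clone response, 0, became 1 in replicate 1 alone, 2 with the replicate block and 0 to 1 with a line left out. Between the replicate sets the count of 9 became 5 with the replicate block and 6 to 13 with a line left out, and in the control lines alone the count of 1 became 0 without the cultures that went against their labels. Within a set, leaving out a line gave 0 to 5 in replicate 1 and 0 to 8 in replicate 2 in MDV3100, 0 to 5 and 0 to 10 in DMSO, and in replicate 1 0 to 2 for the clone response, for the control response and for their difference. The number of all genes called also moved with the line left out. Over both sets in MDV3100, 2 were higher and 6 lower without control 1, against 1056 and 1145 without clone 1. A further fit, chosen after seeing the data, left out the replicate 2 cultures labelled clone 1, control 2 and control 3. It called 11 members in MDV3100 and 4 in DMSO. Clone and set differences cannot be fully told apart in that fit. It leaves 1 control culture in replicate 2, so no counts are given for comparisons between the sets. Of 23 results on single members, 362 values kept direction and side of the threshold, 81 lost the call, 17 gained it and 5 changed sign, all 5 for DMSO differences that were not called over both sets: PSMB8 (-0.1365 in replicate 1 alone), PSMB9 (-0.0699 in replicate 2 alone), IRF9 (-0.0105 in replicate 1 alone) and IRF1 (-0.0669 in replicate 2 alone, and -0.0261 to 0.2517 with a line left out). Over the 29 members the clone difference had opposite signs in the sets in 14 members in MDV3100 and 21 in DMSO. The cause was not tested, beyond the fewer samples of a set or of a fit without a line. Signals near or below 12.1, as for PSMB8 outside replicate 2 clones 9 to 24, limit how far a difference can be measured.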
